A study of Solanum lycopersicum with 18 samples.

Results

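Wound-response genes that tomato is known to switch on through the hormone jasmonate, 10 in number, were followed through fruit of 3 genotypes at 2 ages, among the 35802 gene identifiers of one expression table. They are threonine deaminase Solyc09g008670, leucine aminopeptidase Solyc12g010020, arginase Solyc01g091170, carboxypeptidase inhibitor Solyc07g007260, 4 proteinase inhibitor II genes (Solyc03g020030, Solyc03g020050, Solyc03g020060 and Solyc03g020080) and 2 proteinase inhibitor I genes (Solyc09g084470 and Solyc09g084480). These 10 were chosen by measured values, namely their higher levels in TF18 than in wild-type (WT) fruit of the same libraries. The levels in TF18 against WT are therefore given as a description with no test. The names are those that came with the list, since the table holds identifiers only and 0 of its identifiers matched the RefSeq gene table that was used.

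The fruits were of TF18, a transgenic line with suppressed FUL1 and FUL2, of the rin mutant (LA3754), and of WT, all in the Ailsa Craig background. FUL1, FUL2 and RIN are MADS-box transcription factors of tomato fruit ripening. Each genotype was sampled at 45 DAP, when WT fruit was pink, and at 35 DAP, when it was green, with 3 libraries in each of the 6 groups. TF18 is 1 line, so an effect of the suppression and an effect of that line cannot be told apart. Separate plants are not stated for the libraries of a group, so p-values measure only how far these libraries spread, and part of that may be technical.

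Jasmonate is made from membrane lipids after wounding or insect attack. Its isoleucine conjugate binds the receptor COI1, JAZ repressors are then degraded, and MYC2-type factors switch on target genes. In tomato leaves the targets include inhibitors of digestive proteases, which accumulate in the tissue and act in the gut of a feeding insect, and enzymes such as threonine deaminase and arginase, which break down amino acids there. The same kinds of protein are also known from tomato flowers and unripe fruit.

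Levels are in RPKM, reads divided by the length of the gene and by the total of the library, so they can be compared between genes per length. Read totals ran from 5740900 to 17334324 reads per library. Of the 10 genes, 8 reached 1 RPKM in at least 3 of the 18 libraries and entered the tests, and 7 would have done so on the 12 rin and WT libraries alone; leucine aminopeptidase passed through TF18. The 2 that did not pass were Solyc03g020030 and Solyc09g084480, with 21 and 6 reads over all 18 libraries. In whole fruit tissue, fewer cells of a type and less RNA per cell cannot be told apart. The level of FUL1 and FUL2 in TF18, tissue markers and other jasmonate pathway genes were not analysed here, because no identifier was paired with a name.

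Threonine deaminase, which opens isoleucine synthesis and whose defensive form removes threonine from the insect's diet, stood at 261, 402 and 108 RPKM in replicates 1 to 3 of TF18 at 45 DAP. The TF18 libraries of 35 DAP held 633, 25.3 and 5.42 RPKM. The rin libraries held 0.846, 1.40 and 0.712 RPKM at 45 DAP and 7.08, 0.208 and 0.266 RPKM at 35 DAP. WT fruit had 0.107, 0 and 0.0709 RPKM at 45 DAP and 0.355, 1.43 and 0.146 RPKM at 35 DAP. Every TF18 library thus lay above every WT library, at both ages, and a single rin library of 35 DAP lay within the TF18 range. Pooled over the 3 libraries, TF18 at 45 DAP held 15290 reads of the gene against 3 in WT, a ratio of depth-scaled reads of 3440 with an exact 95% interval of 1180 to 16700. At 35 DAP the pooled ratio of TF18 to WT was 432 (334 to 569). These intervals cover counting error only, not the spread between libraries. At 35 DAP that spread was wide within TF18. The log2 fold change over WT, taken on RPKM + 1, was 4.93, and it was 3.06 without TF18 replicate 1 and 6.37 without TF18 replicate 3.

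Leucine aminopeptidase, an exopeptidase that marks the late wound response in tomato leaves, followed the same libraries at a lower level. It stood at 3.64, 39.4 and 2.94 RPKM in TF18 at 45 DAP and at 58.1, 17.9 and 0.264 RPKM at 35 DAP. In rin it had 0.267, 0.783 and 0.822 RPKM at 45 DAP and 14.8, 0.639 and 0.576 RPKM at 35 DAP. WT fruit had no read of it at 45 DAP in any library and 0.0349, 0.108 and 0.0395 RPKM at 35 DAP. TF18 lay above WT in all libraries of the same age, but the TF18 groups overlapped each other, and at 35 DAP TF18 overlapped rin. With 734 reads in TF18 and 0 in WT, the pooled ratio at 45 DAP was at least 165-fold, taken against 3 reads over the WT group. At 35 DAP it was 484 (207 to 1490), with 5 reads in WT. On the log2 scale the difference from WT was 3.40 at 35 DAP, 2.21 without TF18 replicate 1 and 4.98 without TF18 replicate 3, and at 45 DAP it was 3.18, or 2.10 without TF18 replicate 2.

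The carboxypeptidase inhibitor, a small cystine-rich protein that blocks metallocarboxypeptidases, had the highest mean of the 10 genes in TF18 at both ages, although at 45 DAP that rests on replicate 1, and Solyc03g020060 was above it in replicates 2 and 3. Its levels were 1201, 324 and 402 RPKM in TF18 at 45 DAP and 2058, 2374 and 720.0 RPKM at 35 DAP. The rin libraries had 1.27, 1.04 and 0.341 RPKM at 45 DAP and 52.1, 199 and 41.4 RPKM at 35 DAP. WT had 0, 0 and 3.56 RPKM at 45 DAP and 85.7, 117 and 22.0 RPKM at 35 DAP. The gene was thus present in green fruit of every genotype, near 0 in rin and WT at 45 DAP, and above both in every TF18 library of either age. The group mean in TF18 was 642 RPKM ± 486 (SD, n = 3) at 45 DAP and 1717 ± 878 (SD, n = 3) at 35 DAP, against 1.19 ± 2.06 (SD, n = 3) and 74.8 ± 48.3 (SD, n = 3) in WT. The pooled ratio to WT was 582 (282 to 1450) at 45 DAP and 22.1 (20.7 to 23.6) at 35 DAP.

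The proteinase inhibitor II genes, whose products block trypsin and chymotrypsin, differed widely among themselves. Solyc03g020060 was the main one. It stood at 231, 795 and 495 RPKM in TF18 at 45 DAP and at 94.4, 204 and 28.0 RPKM at 35 DAP. The rin libraries had 14.6, 13.9 and 64.5 RPKM at 45 DAP and 224, 22.7 and 63.5 RPKM at 35 DAP. WT had 0.924, 0.841 and 9.59 RPKM at 45 DAP and 53.0, 50.6 and 132 RPKM at 35 DAP. In green fruit the 3 genotypes overlapped, and at 45 DAP every TF18 library lay above every rin and WT library. The pooled ratio of TF18 to WT was 126 (97.2 to 167) at 45 DAP and 1.29 (1.21 to 1.36) at 35 DAP.

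Solyc03g020080 ran lower, with 5.96, 26.0 and 12.8 RPKM in TF18 at 45 DAP and 2.20, 4.55 and 0.728 RPKM at 35 DAP. In rin it had 1.31, 0.180 and 4.24 RPKM at 45 DAP and 4.54, 0.906 and 3.35 RPKM at 35 DAP. WT had 0, 0 and 0.528 RPKM at 45 DAP and 1.44, 1.61 and 2.72 RPKM at 35 DAP. At 45 DAP every TF18 library lay above every rin and WT library, while rin and WT overlapped, and at 35 DAP all 3 genotypes overlapped.

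Solyc03g020050 did not keep this pattern. It had 10.3, 8.58 and 17.0 RPKM in TF18 at 45 DAP and 1.64, 12 and 3.46 RPKM at 35 DAP. The rin libraries had 1.56, 1.42 and 7.99 RPKM at 45 DAP and 11.4, 11.7 and 42.1 RPKM at 35 DAP. WT had 2.37, 0 and 10.04 RPKM at 45 DAP and 13.5, 21.0 and 10.9 RPKM at 35 DAP. TF18 and WT overlapped at both ages, and at 35 DAP the TF18 mean, 5.71 RPKM ± 5.55 (SD, n = 3), was the lower one, against 15.1 ± 5.25 (SD, n = 3) in WT. Solyc03g020030 had no read in any TF18 library, where 3 reads over the group would be 0.135 RPKM at 45 DAP and 0.138 RPKM at 35 DAP. Its 21 reads came from WT at 45 DAP, with 18, and from rin at 45 DAP, with 3. The name of the group, raised in TF18, does not hold for this gene. How reads that match more than 1 of these neighbouring inhibitor genes were assigned is not given in the sources used here, so the split between them is uncertain, and the same holds for the proteinase inhibitor I pair.

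Of the proteinase inhibitor I genes, whose products act mainly on chymotrypsin, Solyc09g084470 had 7.17, 12.8 and 2.89 RPKM in TF18 at 45 DAP and 0.197, 0.361 and 0.520 RPKM at 35 DAP. The rin libraries held no read at 45 DAP and 9.60, 1.66 and 2.84 RPKM at 35 DAP. WT had 0, 0 and 1.89 RPKM at 45 DAP and 0.515, 4.43 and 10.7 RPKM at 35 DAP. TF18 was thus the highest group at 45 DAP and the lowest at 35 DAP, where all its libraries lay below all rin libraries. The pooled ratio of TF18 to WT was 11.3 (4.67 to 35.8) at 45 DAP and 0.0685 (0.0182 to 0.182) at 35 DAP. Solyc09g084480 reached at most 0.758 RPKM in any library, in rin replicate 3 of 45 DAP, and its highest TF18 library held 1 read. The name, raised in TF18, does not hold for this gene either.

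Arginase, which splits arginine into ornithine and urea, was an abundant transcript of green fruit in all 3 genotypes. It had 88.8, 111 and 64.9 RPKM in TF18 at 45 DAP and 122, 116 and 33.8 RPKM at 35 DAP. The rin libraries had 22.5, 10.1 and 30.8 RPKM at 45 DAP and 346, 79.6 and 146 RPKM at 35 DAP. WT had 0.188, 0.171 and 1.496 RPKM at 45 DAP and 113, 205 and 90.3 RPKM at 35 DAP. At 35 DAP the 3 genotypes overlapped, and at 45 DAP they formed 3 separate ranges, TF18 above rin and rin above WT. The pooled ratio of TF18 to WT was 140 (84.5 to 250) at 45 DAP and 0.669 (0.641 to 0.698) at 35 DAP.

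**Figure D1:**
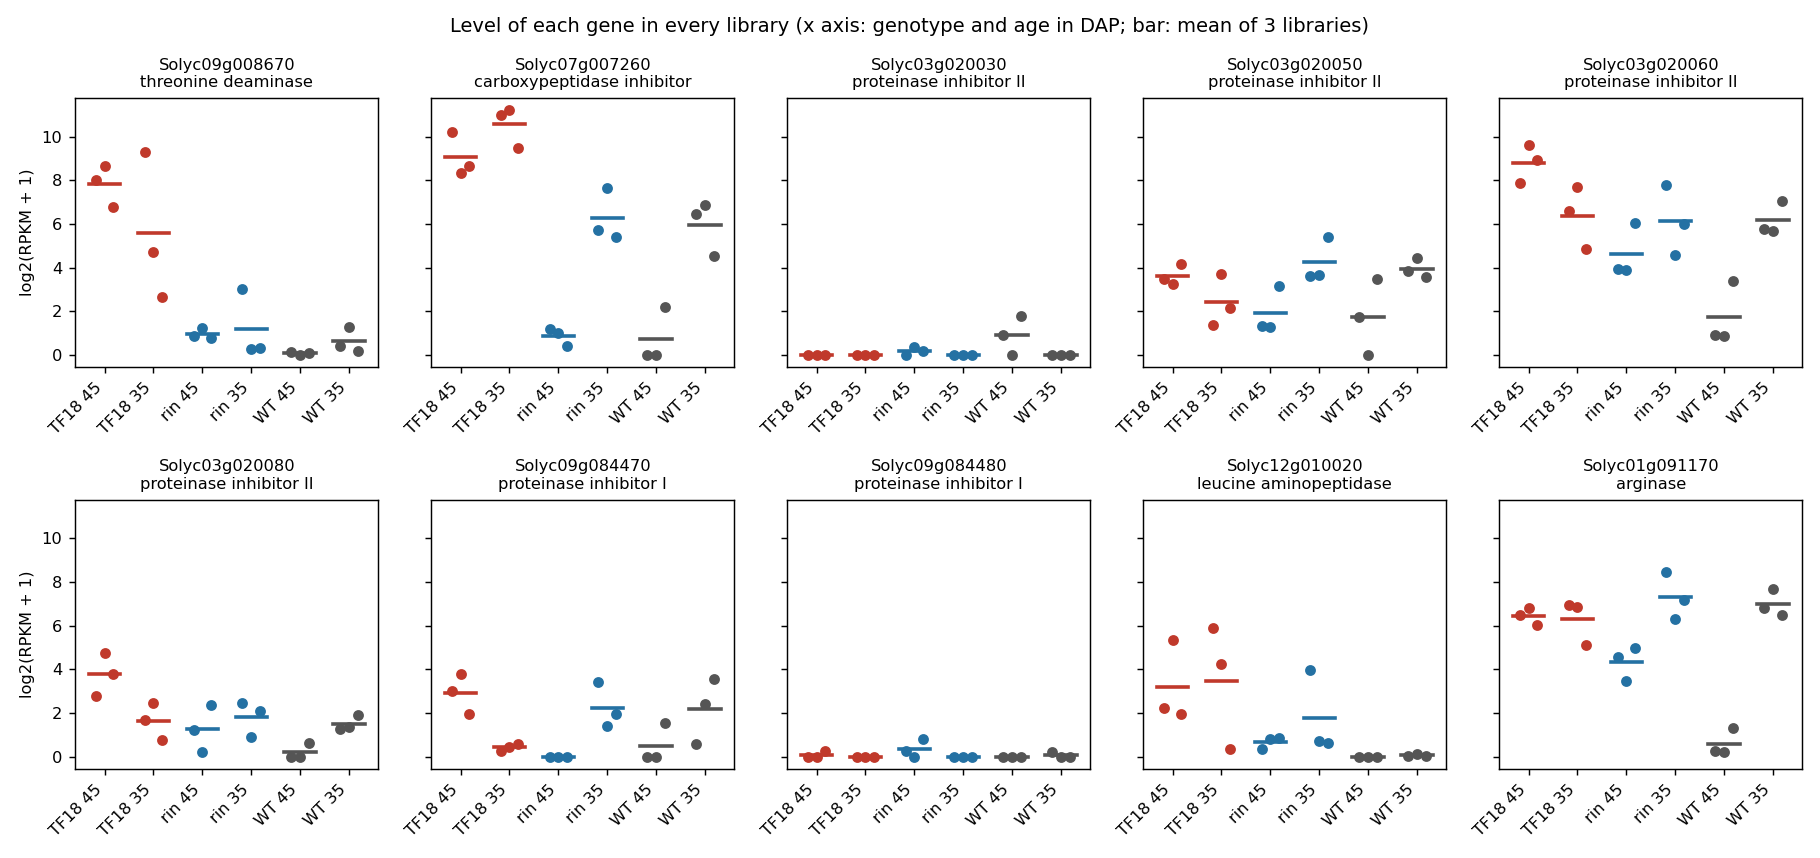
Level of each of the 10 genes in every library, as log2(RPKM + 1) on the vertical axis, by genotype and age in DAP on the horizontal axis; points are libraries and bars are the means of 3. TF18 at 45 DAP lies apart from WT at 45 DAP for 7 genes, and Solyc03g020030 and Solyc09g084480 lie at or near 0 in every group.

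Set side by side, 7 of the 10 genes had all 3 TF18 libraries above all 3 WT libraries at 45 DAP, and 54.4% of the 20658 genes tested did so too. At 35 DAP 3 of the 10 did, namely threonine deaminase, leucine aminopeptidase and the carboxypeptidase inhibitor, beside 24.2% of all genes. The comparison of TF18 with WT chose the genes, so nothing is read from these counts. The median log2 fold change of the 8 genes tested was 4.71 at 45 DAP and 0.17 at 35 DAP, beside 0.75 and 0.13 over all genes. The all-gene median at 45 DAP depended on the scaling, with 0.10 under TMM-type scaling and -0.02 under quantile normalization. At 45 DAP the log2 fold changes over WT ran from 1.90 for Solyc03g020050, which was 1.03 without WT replicate 2, to 8.35 for the carboxypeptidase inhibitor. At 35 DAP they ran from -1.76 for Solyc09g084470 to 4.93 for threonine deaminase. That of Solyc03g020060 at 35 DAP, 0.21, was -0.45 without TF18 replicate 2 and 0.96 without TF18 replicate 3.

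Against rin at 45 DAP, 8 of the 10 genes had all TF18 libraries above all rin libraries, beside 30.8% of all genes tested. The log2 fold changes over rin ran from 1.71 for Solyc03g020050 to 8.20 for the carboxypeptidase inhibitor. At 35 DAP the carboxypeptidase inhibitor alone lay wholly above rin, with a log2 fold change of 4.31, beside 25.9% of all genes. Threonine deaminase at 35 DAP had a log2 fold change over rin of 4.36, with TF18 replicate 3 below rin replicate 1. These comparisons use the TF18 libraries that chose the genes, so they too carry no test. They also share those libraries with the comparison against WT, and their values are given beside it, not as support for it.

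**Figure D2:**
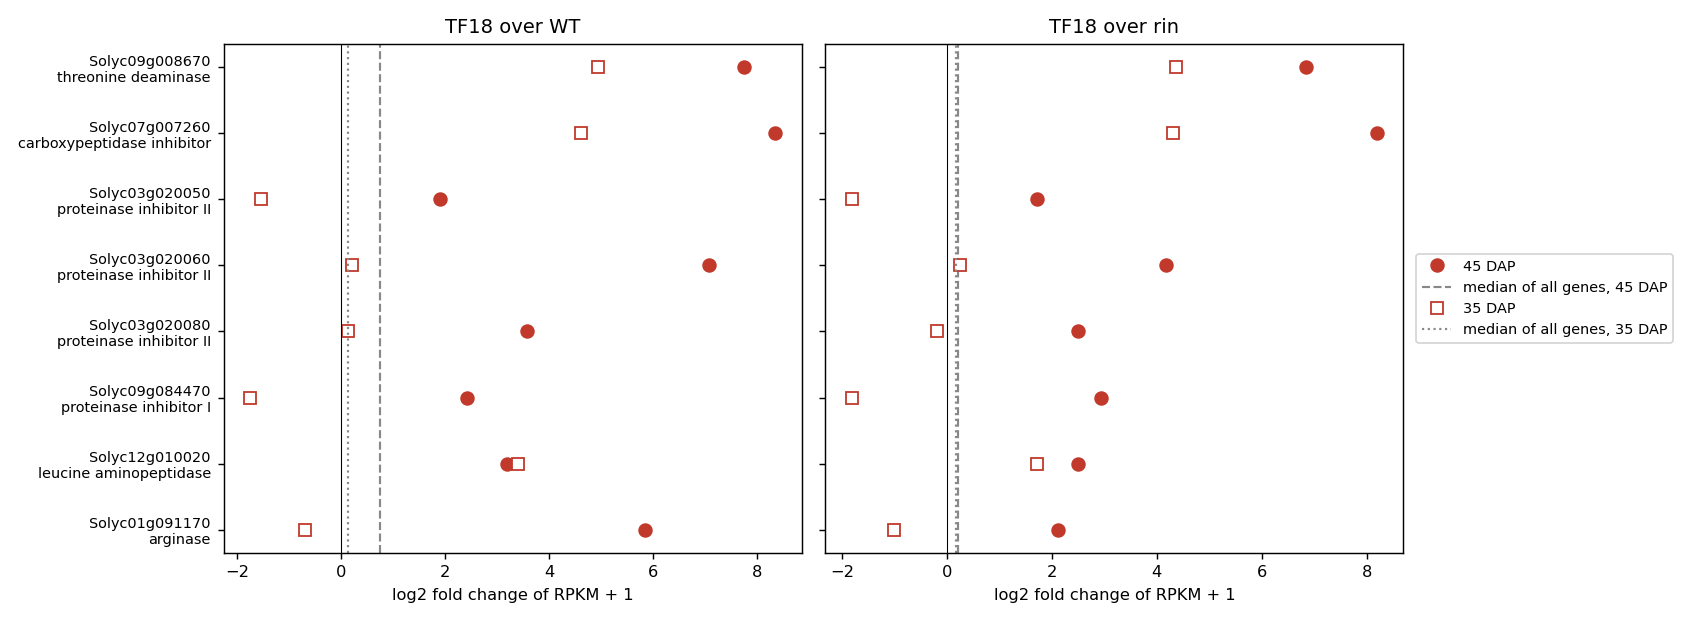
Log2 fold change of RPKM + 1 for the 8 genes tested, TF18 over WT (left) and TF18 over rin (right), with filled circles for 45 DAP and open squares for 35 DAP; dashed and dotted lines are the medians of all genes tested. At 45 DAP all 8 genes lie right of the median of all genes in both panels, and at 35 DAP Solyc03g020050, Solyc09g084470 and arginase lie left of 0 in both panels.

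Old TF18 fruit was also set beside green WT fruit. Threonine deaminase averaged 257 RPKM ± 147 (SD, n = 3) in TF18 at 45 DAP and 0.644 ± 0.689 (SD, n = 3) in WT at 35 DAP, a ratio of means of 399. The ratio was 252 for leucine aminopeptidase, 8.58 for the carboxypeptidase inhibitor, 7.75 for Solyc03g020080 and 6.47 for Solyc03g020060, each with all TF18 libraries above all WT libraries. For arginase the ratio was 0.649, for Solyc03g020050 it was 0.791 and for Solyc09g084470 it was 1.47, and for these 3 genes the libraries overlapped. The 5 genes with all libraries above stand beside 32.8% of all genes tested that did the same, and as TF18 and WT chose the genes, nothing is read from the count.

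The next comparisons ask how the genes change with age and how rin compares with WT. All were fitted on log2(RPKM + 1) with limma, over 20658 genes with Benjamini-Hochberg adjustment. A gene is counted as passing the call rule, and in rin the words rose and fell are used, where the adjusted p was under 0.05 and the log2 fold change was 1 or more in size. The change with age in rin is the one comparison without libraries of TF18 or WT, the groups whose contrast chose the genes. Its p-values are given. The genes were chosen with earlier results of these data known, so rin values may have had a part in that choice. The spread behind every SE and p-value was still estimated over all 6 groups, TF18 and WT included. For these comparisons of age and of rin with WT, the share of all genes whose libraries did not overlap was not counted. Statements on such separation therefore describe single genes only. The TF18 and WT libraries chose the genes as high in TF18 and low in WT, which favours low WT values at 45 DAP. Every comparison with TF18 or WT libraries is therefore a description, with counts and sizes but no p-value.

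In rin, a mutant known for fruit that fails to ripen, 4 of the 8 genes fell at 45 DAP relative to 35 DAP and 0 rose, beside 8.84% of all genes that fell. The median log2 fold change was -1.88 for the 8 and 0.04 over all genes. Of the 8, leucine aminopeptidase entered the tests only through TF18, and it was not among the 4 that fell. The carboxypeptidase inhibitor fell by 5.38 on the log2 scale (SE 0.77, limma adjusted p = 0.00018) and arginase by 2.99 (SE 0.58, limma adjusted p = 0.0015). Solyc03g020050 fell by 2.31 (SE 0.80, limma adjusted p = 0.041) and Solyc09g084470 by 2.25 (SE 0.67, limma adjusted p = 0.021). In these 4 genes all rin libraries of 45 DAP lay below all of 35 DAP, and the share of all genes that did so was not counted. The fall of Solyc03g020050 was near the threshold and was lost when any 1 rin library except replicate 3 of 45 DAP was left out, and also without WT replicate 1 of 35 DAP, with adjusted p from 0.050 to 0.17. It was also lost under TMM-type scaling (limma adjusted p = 0.054), quantile normalization (0.059), a pseudocount of 0.1 RPKM (0.12), no filter on low values (0.059) and a fit of the compared groups alone (0.052). That of Solyc09g084470 was lost without rin replicate 1 of 35 DAP (adjusted p = 0.099) or rin replicate 2 of 45 DAP (adjusted p = 0.055), so that 2 genes were called without either library, and under a pseudocount of 5 RPKM (0.076). The falls of the carboxypeptidase inhibitor and arginase held under every alternative tried. Solyc03g020060 had -1.50 on the log2 scale (SE 0.93, limma adjusted p = 0.25), and threonine deaminase, leucine aminopeptidase and Solyc03g020080 had -0.24, -1.10 and -0.56, with overlapping libraries.

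In TF18, 0 of the 8 genes passed the call rule between 45 and 35 DAP with limma, where 147 genes or 0.712% of all did so. For 3 genes all TF18 libraries of 45 DAP lay above all of 35 DAP, and the share of all genes that did so was not counted. Their log2 fold changes at 45 DAP over 35 DAP were 2.49 (SE 0.67) for Solyc09g084470, 2.45 (SE 0.93) for Solyc03g020060 and 2.13 (SE 0.59) for Solyc03g020080. These TF18 libraries also served to choose the genes as high in TF18, so nothing is read from that. The carboxypeptidase inhibitor had -1.50 (SE 0.77) and arginase 0.13 (SE 0.58). Threonine deaminase had 2.25 (SE 1.17), and without TF18 replicate 1 of 35 DAP, the library with 633 RPKM, it had 4.12 and passed the call rule.

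In WT, 5 of the 8 genes passed the call rule as lower at 45 DAP than at 35 DAP and 0 as higher, beside 34.2% of all genes called lower. The median log2 fold change was -1.95 for the 8 and -0.58 over all genes. Arginase had a log2 fold change of -6.41 (SE 0.58), the carboxypeptidase inhibitor -5.22 (SE 0.77) and Solyc03g020060 -4.42 (SE 0.93). Every WT library of 45 DAP lay below every WT library of 35 DAP for each of the 8 genes but Solyc09g084470. The share of all genes that did so was not counted. For leucine aminopeptidase this rests on 0 pooled reads at 45 DAP against 5 at 35 DAP. With 3 reads at 45 DAP its ratio to 35 DAP would be 1.23, so no decrease is read from it. Solyc03g020050 had -2.22 (SE 0.80) and Solyc09g084470 had -1.69 (SE 0.67), and these 2 did not pass under TMM-type scaling, quantile normalization or library weights. They also did not pass without WT replicate 2 of 35 DAP, or without WT replicates 1 or 2 of 45 DAP, which left 3 genes called. The balance over all genes in WT depended on the scaling as well. As deposited 1557 were called higher and 7072 lower, and with quantile normalization 3085 higher and 3196 lower.

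**Figure D3:**
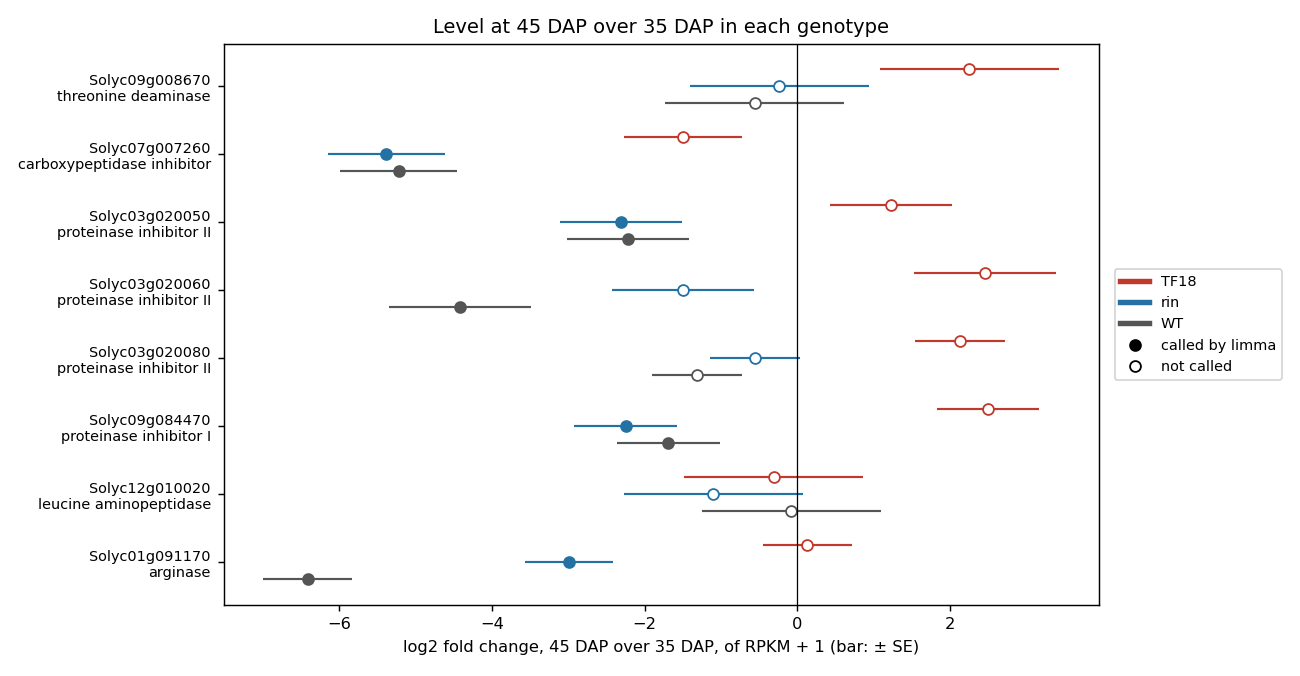
Log2 fold change of RPKM + 1 at 45 DAP over 35 DAP for the 8 genes tested in TF18, rin and WT, with the standard error as a bar; filled points passed the call rule and open ones did not. In WT 5 genes and in rin 4 genes are filled, all left of 0, and 0 points of TF18 are filled.

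The change with age was also set side by side in rin and WT, as an interaction. Arginase was the 1 of the 8 genes that passed the call rule, beside 23.2% of all genes called higher, with a difference of age changes of 3.43 on the log2 scale (SE 0.82). Its log2 fold change with age was -2.99 in rin and -6.41 in WT. The difference did not pass under quantile normalization (2.59) or a pseudocount of 5 RPKM (1.83), and this comparison rests on the WT libraries of 45 DAP that chose the genes as low in WT. For Solyc03g020060 the difference was 2.92 (SE 1.31), and 2 genes were called without WT replicate 3 of 45 DAP (3.75 for Solyc03g020060) or without rin replicate 1 of 35 DAP (3.76). For the carboxypeptidase inhibitor the difference was -0.17 (SE 1.09), with log2 fold changes of -5.38 in rin and -5.22 in WT.

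At 45 DAP, 2 of the 8 genes passed the call rule as higher in rin than in WT and 0 as lower, beside 25.9% of all genes called higher. With quantile normalization the calls over all genes were 1659 higher and 1367 lower, against 5344 and 707 as deposited. Arginase averaged 21.1 RPKM ± 10.4 (SD, n = 3) in rin and 0.618 ± 0.760 (SD, n = 3) in WT, and the log2 fold change was 3.74 (SE 0.58). Solyc03g020060 averaged 31.0 RPKM ± 29.0 (SD, n = 3) in rin and 3.79 ± 5.03 (SD, n = 3) in WT, and the log2 fold change was 2.89 (SE 0.93). It did not pass without WT replicate 1 (2.49), WT replicate 2 (2.46) or rin replicate 3 (2.19) of 45 DAP. Nor did it pass under TMM-type scaling (2.47), quantile normalization (1.87), library weights (1.86) or a pseudocount of 5 RPKM (1.89). Threonine deaminase and leucine aminopeptidase also lay above all WT libraries in all rin libraries, at 0.986 RPKM ± 0.364 (SD, n = 3) and 0.624 ± 0.310 (SD, n = 3) in rin. On the log2 scale they differed by 0.89 (SE 1.17) and 0.68 (SE 1.17). These SEs include the wide spread of both genes among the TF18 libraries. The pooled reads give rin over WT ratios of 13.9 (4.56 to 69.1) for threonine deaminase and at least 7.77 for leucine aminopeptidase. The carboxypeptidase inhibitor, which was at 324 RPKM or more in TF18, had a log2 difference between rin and WT of 0.15 (SE 0.77).

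At 35 DAP, 0 of the 8 genes passed the call rule between rin and WT with limma, where 19 genes or 0.092% of all did. At an unadjusted p under 0.05 there were 527 genes and 0 of the 8. The largest log2 fold change was that of leucine aminopeptidase, 1.70 (SE 1.17), and its 3 rin libraries lay above the 3 WT libraries. Of these, replicate 1 of rin held 14.8 RPKM.

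Within some groups most of the genes were highest or lowest in the same library, but not all genes moved together. How all other genes ranked in those libraries was not counted. In TF18 at 35 DAP, replicate 3 was the lowest library for 6 of the 8 genes with reads, and the summed level of the 10 genes was 2970, 2754 and 792 RPKM in replicates 1 to 3. The carboxypeptidase inhibitor alone made up 2058, 2374 and 720 RPKM of these sums, so they largely reflect that gene. In rin at 35 DAP, replicate 1 was the highest for 6 of 8, with sums of 669, 316 and 300.2 RPKM. In WT at 45 DAP, replicate 3 was the highest for 7 of 8, with sums of 4.51, 1.013 and 29.6 RPKM. Among pairs of the genes tested, threonine deaminase with leucine aminopeptidase and Solyc03g020060 with Solyc03g020080 varied together most closely over the 18 libraries. For threonine deaminase and leucine aminopeptidase the correlation of deviations from the group means, on log2(RPKM + 1), was 0.859 over 18 libraries and 0.75 to 0.920 when 1 library was left out. Over the 12 rin and WT libraries it was 0.931, which rests on rin replicate 1 of 35 DAP, since it was 0.255 over the other 11. Leaving out single libraries here was chosen after the data were seen. For Solyc03g020060 and Solyc03g020080 it was 0.875 over 18 libraries and 0.850 over the 12, and 0.790 to 0.924 over the 12 when 1 was left out. Arginase ranged over 18 libraries from 0.249 with the carboxypeptidase inhibitor to 0.739 with Solyc03g020060. It had 0.701 with Solyc03g020080 and 0.699 with leucine aminopeptidase. The carboxypeptidase inhibitor did not go with these genes, with -0.278 to Solyc03g020080 and 0.200 to threonine deaminase over 18 libraries. These values describe libraries that share a read total within each pair of genes, and reads shared between the inhibitor genes would add to the likeness of Solyc03g020060 and Solyc03g020080.

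**Figure D4:**
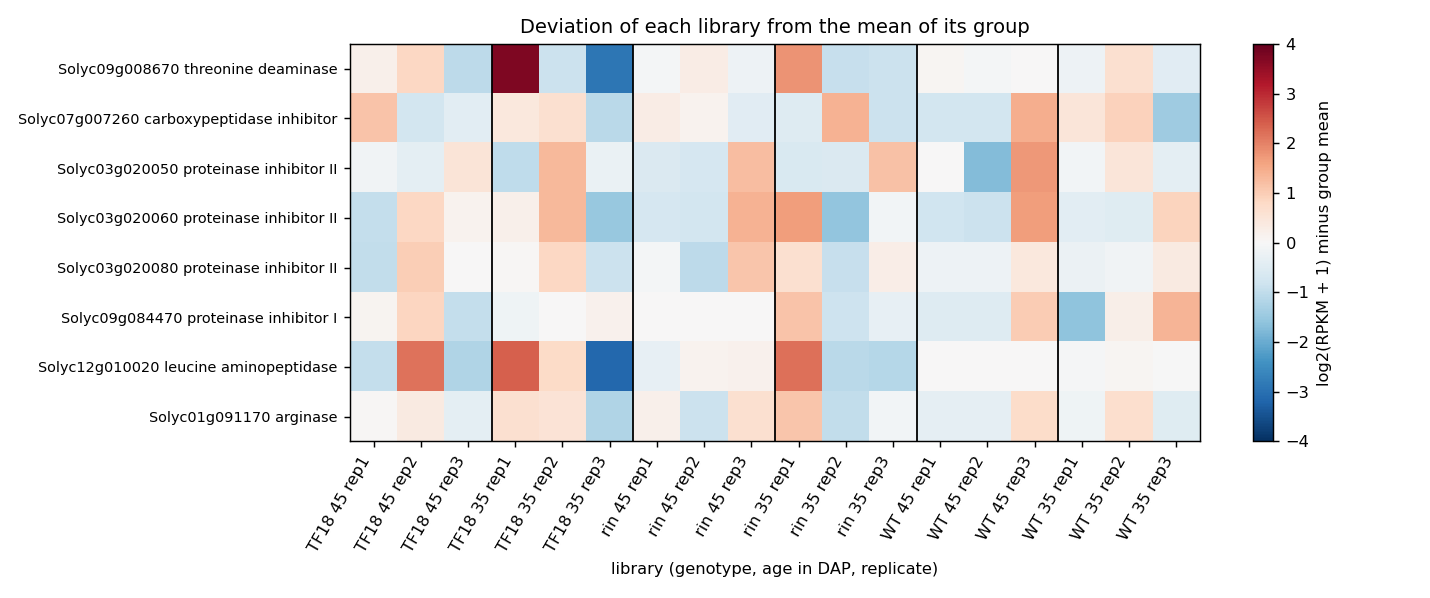
Deviation of each library from the mean of its group, in log2(RPKM + 1), for the 8 genes tested (rows) and the 18 libraries (columns, by genotype, age in DAP and replicate); red is above and blue below the group mean. TF18 replicate 3 of 35 DAP is blue for most genes and WT replicate 3 of 45 DAP red for most, while the carboxypeptidase inhibitor row differs from those of threonine deaminase and leucine aminopeptidase.

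Genes beside the 10 in identifier order were examined next, taking the 10 identifiers before and the 10 after each on the same chromosome number. There were 122 such neighbours, of which 83 were tested. At 45 DAP, 38 of the 83 (45.8%) were called higher in TF18 than in WT by limma, beside 40.3% of all genes, and 5 were called lower. At 35 DAP, 3 of the 83 (3.61%) were called higher, beside 2.71% of all genes, and 2 lower. The share of neighbours called higher thus lay near that of all genes at both ages. As deposited 8323 genes were higher and 1278 lower in TF18 at 45 DAP, and with quantile normalization 3254 were higher and 2803 lower.

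Of the neighbours that separated TF18 from WT, the most abundant in TF18 at 45 DAP were Solyc07g007250 and Solyc09g084440, singled out after their values were seen and so given with no test. Solyc07g007250, whose identifier is next to that of the carboxypeptidase inhibitor, had 2836, 1281 and 1122 RPKM in TF18 at 45 DAP and 3513, 1863 and 408 RPKM at 35 DAP. In rin it had 10.8, 7.74 and 19.6 RPKM at 45 DAP and 737, 1536 and 230 RPKM at 35 DAP, and in WT it had 7.36, 3.72 and 73.7 RPKM at 45 DAP and 396, 862 and 95.6 RPKM at 35 DAP. It was thus high in green fruit of all 3 genotypes and high at 45 DAP in TF18. Solyc09g084440, near the proteinase inhibitor I pair, had 900.0, 611 and 516 RPKM in TF18 at 45 DAP and 1180, 274 and 152 RPKM at 35 DAP. In rin it had 3.38, 2.05 and 1.26 RPKM at 45 DAP and 1928, 2968 and 516 RPKM at 35 DAP, and in WT it had 1.42, 4.15 and 7.92 RPKM at 45 DAP and 217, 396 and 163 RPKM at 35 DAP. Its TF18 and WT libraries overlapped at 35 DAP and were apart at 45 DAP.

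**Figure D5:**
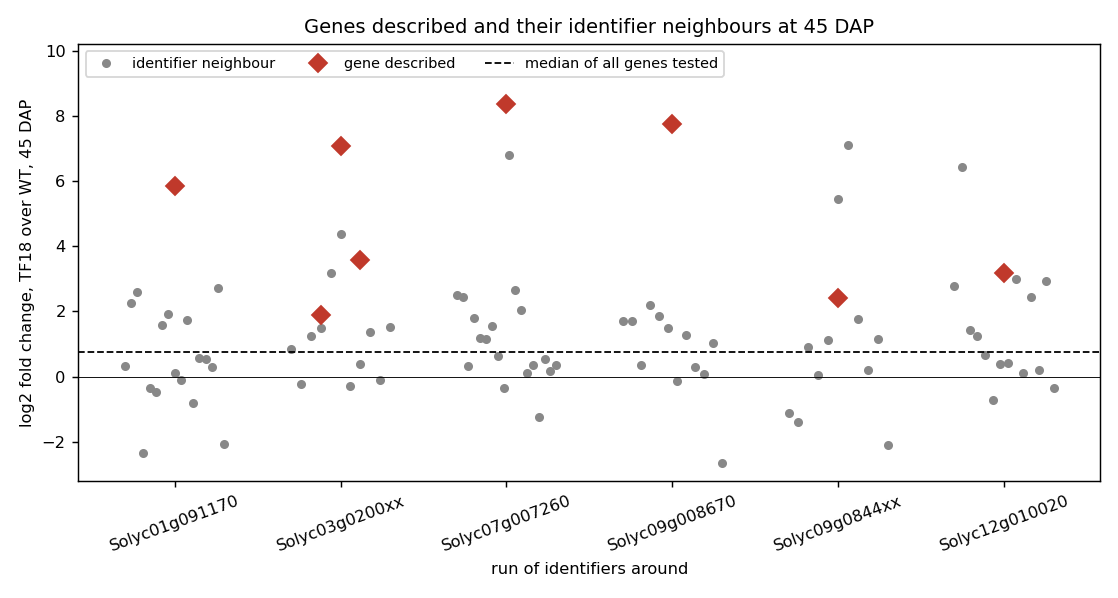
Log2 fold change of RPKM + 1, TF18 over WT at 45 DAP, for the genes described (diamonds) and their tested identifier neighbours (points) along each run of identifiers; the dashed line is the median of all genes tested, 0.75. Of the 83 neighbours 38 were called higher, and Solyc07g007250 and Solyc09g084440 lie among the diamonds.

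The profile of the genes over the 18 libraries was also compared with every other gene of at least 10 RPKM in a group. Among 13854 candidates, 924 had a Pearson correlation above 0.8 with the mean standardised profile of the 8 genes. The closest were Solyc02g079340 with 0.955 and Solyc01g109790 with 0.946. Solyc01g109790 averaged 225 RPKM ± 135 (SD, n = 3) in TF18 at 45 DAP and 104 ± 99.4 (SD, n = 3) at 35 DAP, 8.75 ± 5.36 (SD, n = 3) and 59.3 ± 33.6 (SD, n = 3) in rin at the same ages, and 0.343 ± 0.364 (SD, n = 3) and 41.3 ± 26.7 (SD, n = 3) in WT. Among the 8 genes themselves the correlation with their mean profile ran from 0.612 for Solyc03g020050 to 0.963 for Solyc03g020060. Each of the 8 is part of that mean, which raises its correlation, so these values cannot be set against those of the other genes.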

How the data were processed

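RNA of 18 tomato fruit libraries was sequenced on an Illumina instrument, per the labels. The authors deposited 1 table of RPKM values for 35802 identifiers, with 1 column per library, and 0 columns were left without a sample. CASAVA 1.8.1 and Bowtie2 are named in the submitters' processing notes; the sources used here give no build, annotation or counter. Titles gave each library its group and number.

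Whole reads and coding lengths were solved from the steps of the RPKM values, within 0.02 reads, for 28564 of 28612 identifiers with a value above 0 (99.83%). Read totals follow from the same steps. Ratios of pooled reads carry exact conditional 95% intervals. Reads carry no molecular identifiers, so intervals and the floor of 3 reads cover counting error only.

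Tests used limma 3.58.1 in R 4.3.3 on log2(RPKM + 1), with 1 model of 6 group means, a variance trend and two-sided p-values adjusted over the 20658 genes that reached 1 RPKM in 3 or more libraries. Fold changes on this scale understate the change of low genes. The code was tested on simulated data. The 6 contrasts of age, of rin with WT and of their interaction were fitted. For the change with age in rin, the one without TF18 or WT libraries, p-values are given, and the rest is described. Contrasts of TF18 with WT and with rin came from the same model. They gave fold changes for the genes tested, and those with WT gave the calls over the neighbours and all genes. Alternatives were 2 other pseudocounts, 2 other filters, TMM-type and quantile scaling, library weights, the compared groups alone, the replicate number as a block, and each library left out. Same-numbered libraries were checked for pairing. In 1 of 15 pairs of groups, TF18 and WT at 35 DAP, all 3 correlations of deviations exceeded 0.1 (0.284 to 0.47). That pair was not tested for the wound-response genes. Its calls over the neighbours and all genes came from the model of 6 group means, which did not allow for such pairing.

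The 10 genes, the neighbour list and the tests were chosen with earlier results of these data known. All 10 genes were named, with the 2 genes most like their mean profile and at most 2 neighbours that reached 10 RPKM in TF18 and separated TF18 from WT. No sequences are shown.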

Additional observations from a re-analysis of the deposited data

Results flagged for a closer look

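The change of arginase, Solyc01g091170, at 45 DAP over 35 DAP was set apart between rin and WT by the interaction in the limma fit. The difference of the log2 fold changes was 3.43 (SE 0.82), with -2.99 in rin and -6.41 in WT, and 23.2% of all genes were called higher in the same interaction. It passed the call rule as deposited, and not under quantile normalization (2.59) or a pseudocount of 5 RPKM (1.83). The WT libraries of 45 DAP also served to choose the gene as low in WT, so no p-value is given. Groups held 3 libraries, too few for a check of single libraries that stand apart.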

How the results depend on the processing

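Over 1296 values of single genes under an alternative, 1244 kept their side of the threshold, 40 lost a call, 12 gained one and 0 called values reversed; 57 of the 1244, not called, changed sign. In many of these alternatives the library left out was outside the comparison. The fold change could not move there, and only its p-value could, so the count of 1244 overstates how far the results were tried. Genes called lower at 45 DAP in WT numbered 5 as reported and 3 under TMM-type scaling, quantile normalization and library weights, and 3 to 6 when 1 library was left out. In WT Solyc09g084470 also did not pass under a pseudocount of 5 RPKM (-0.75), no filter or the compared groups alone (both -1.69). Nor did it pass without WT replicate 3 of 35 DAP (-1.01). Solyc03g020080 passed as lower under a pseudocount of 0.1 RPKM (-3.40) and in the compared groups alone (-1.32). Falls in rin numbered 4, and 6 under library weights (Solyc03g020060 at -2.18 and Solyc03g020080 at -1.36 added), 3 under TMM-type scaling, quantile normalization, either other pseudocount, no filter and the compared groups alone, and 2 to 4 with 1 library left out. Genes higher in rin than in WT at 45 DAP numbered 2, and 1 under a pseudocount of 5 RPKM, TMM-type scaling, quantile normalization and library weights, and 1 to 3 with 1 library left out. For the interaction the count was 1, and 0 under a pseudocount of 5 RPKM (arginase 1.83) and quantile normalization (2.59), and 1 to 2 with 1 library left out. In TF18 the count between ages was 0, and 1 under library weights (Solyc03g020080, 1.61), and 0 to 1 with 1 library left out. Between rin and WT at 35 DAP it was 0 throughout, and 0 to 0 with 1 library left out. With the replicate block, whose numbers have no stated meaning, the counts were 4 in rin, 2 between rin and WT at 45 DAP and 4 in WT, where Solyc09g084470 had -1.69 and did not pass; no other call changed. The causes of these shifts were not tested. At 45 DAP WT held 24081831 reads in all, so its count of 0 for leucine aminopeptidase allows up to 0.0754 RPKM, the level of 3 reads.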
